A study of Mus musculus with 8 samples.

Results

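Goblet cell mucins and secretory genes were examined in RNA-seq of small intestinal adenomas from mice with and without the protein 14-3-3σ, the product of the gene Sfn. The 10 genes, Muc2, Tff3, Clca1, Fcgbp, Zg16, Agr2, Spdef, Spink4, Muc4 and Muc13, were taken by name from a sheet of 48440 gene rows, and each of the 10 had a row. All mice were on a C57BL/6 background and carried ApcMin/+, a germline Apc mutation under which mice grow intestinal polyps. The knockout group, ApcMin/+/14-3-3σ-/-, held 4 adenomas, from mice aged 144 to 148 days. The group with intact 14-3-3σ, ApcMin/+, held 4 adenomas, from mice aged 256 to 282 days. Age and genotype therefore cannot be told apart. The labels number the adenomas and do not say that each is from a separate mouse, so p-values measure the spread between these samples. Values are RUVs-normalised read counts as deposited by the authors, and the depth of each library before normalisation is unknown.

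Goblet cells are secretory cells of the intestinal epithelium that fill with mucin granules and release the mucus that keeps bacteria away from the tissue. Muc2 forms the polymer of this gel, and Fcgbp, Clca1, Zg16, Tff3 and Spink4 are secreted along with it. Agr2, a protein disulfide isomerase of the endoplasmic reticulum, is needed to fold Muc2, and Spdef is an ETS-family transcription factor of goblet cell maturation. Muc4 and Muc13 are transmembrane mucins that stay on the cell surface, and absorptive cells make Muc13 as well.

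Promoter sequences of 6 of the 10 genes were matched in RefSeq (GRCm38.p6), each window with 250 bases before and 50 bases after the annotated start. Muc2, Fcgbp and Agr2 are shown. Their levels were high and low in the same ApcMin/+ libraries, and so were those of Muc4, Spdef and Muc13, which are not shown. Those shown are the 3 of the 6 genes whose windows held the KLF letters, so that they share these letters is not a result. Muc4 held other matches, and Spdef, whose levels followed those of Agr2, held none, as did Muc13. Capitals mark every match, on either strand, to 1 of 7 motifs. The basal promoter motif searched was TATAAA, known as the TATA box. For basic helix-loop-helix factors such as Atoh1 the motif was CAGCTG, an E-box form. For GATA factors the letters searched were AGATAA in either direction. For forkhead factors of the FOXA group they were TGTTTAC in either direction. For ETS factors of the SPDEF kind they were CCGGAT in either direction. For Krueppel-like (KLF) factors they were GGGTGTG in either direction. For the caudal (CDX) factors of intestinal identity they were TTTATNG in either direction. Muc2 (chr7:141690090-141690389, plus strand), Fcgbp (chr7:28070986-28071285, plus strand) and Agr2 (chr12:35992675-35992974, plus strand) read as follows.
Muc2: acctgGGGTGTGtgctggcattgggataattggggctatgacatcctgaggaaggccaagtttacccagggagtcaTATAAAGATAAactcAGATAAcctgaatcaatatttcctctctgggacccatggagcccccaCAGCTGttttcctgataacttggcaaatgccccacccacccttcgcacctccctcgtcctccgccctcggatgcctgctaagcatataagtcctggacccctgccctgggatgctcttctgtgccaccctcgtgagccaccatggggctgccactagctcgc
Fcgbp: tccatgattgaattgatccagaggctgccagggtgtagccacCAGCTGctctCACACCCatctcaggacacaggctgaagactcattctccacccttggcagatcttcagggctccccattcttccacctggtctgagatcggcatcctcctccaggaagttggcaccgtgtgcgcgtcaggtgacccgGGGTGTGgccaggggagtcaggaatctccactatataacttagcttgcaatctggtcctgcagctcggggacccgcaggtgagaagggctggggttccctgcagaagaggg
Agr2: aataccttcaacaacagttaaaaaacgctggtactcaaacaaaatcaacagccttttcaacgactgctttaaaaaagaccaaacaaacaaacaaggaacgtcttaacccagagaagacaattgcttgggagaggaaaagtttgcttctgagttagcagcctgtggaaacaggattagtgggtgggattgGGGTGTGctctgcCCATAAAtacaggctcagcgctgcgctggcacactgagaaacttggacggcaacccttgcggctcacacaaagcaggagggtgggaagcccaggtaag
The KLF letters stood once in Muc2, starting at base -245 from the start, at -61 and, on the other strand, at -198 in Fcgbp, and at -61 in Agr2. They occurred in 7.95% of 32851 promoter windows of this length. The E-box letters stood at -112 in Muc2 and at -208 in Fcgbp (16.3% of windows), and the CDX letters at -48 in Agr2 on the other strand (10.9%). In Muc2 the TATA letters at -174 share a base with a GATA match at -169, and another GATA match stood at -159. TATA letters occurred in 13.6%, GATA letters in 11.2%, FOXA letters in 3.65% and the ETS letters in 6.04% of windows, and these windows of Muc2, Fcgbp and Agr2 held no FOXA or ETS match. A match describes the letters and is not a measured binding site.

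Sfn was listed at 0 or 1 in the knockout libraries and at 6585 to 15968 in the ApcMin/+ libraries, a difference of -12.81 on the log2(value + 1) scale (two-sided exact permutation p = 0.0286, the smallest that 4 against 4 libraries allow). The normalised values summed to between 36241013 and 38957213 in the knockout libraries and between 34182800 and 46707800 in the ApcMin/+ libraries. In the labels the number in the name of 1 knockout column belongs to an ApcMin/+ adenoma, so this column is referred to as the unnumbered knockout library. The normalisation had left no free variation along 1 direction between replicates, which mainly sets ApcMin/+ replicates 1 and 2 against replicates 3 and 4, so the 4 ApcMin/+ libraries do not vary fully independently. The column names of all knockout libraries and of ApcMin/+ replicates 1 and 2 share a prefix, and ApcMin/+ replicates 3 and 4 carry another. The prefix thus divides the ApcMin/+ libraries as that direction mainly does. The second prefix occurs in ApcMin/+ alone, so prefix and genotype are partly tied. Xist, transcribed from an inactivated X, exceeded 1000 in the unnumbered knockout library and in ApcMin/+ replicates 2 and 3. The 8 pan-epithelial markers, Epcam and Krt8 among them, summed to 403057 to 486053 in the knockout libraries and to 364626 to 643915 in the ApcMin/+ libraries, and none was near 0. The 8 defining goblet markers were detected in all 8 libraries, at 1580 or more.

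In limma, 0 of the 10 goblet cell genes passed an adjusted p of 0.05, where 0.331% of the 17523 genes tested did. At an unadjusted limma p under 0.05 there was 1 of the 10, Clca1, against 18.9% of all genes tested. Knockout and ApcMin/+ values overlapped for each of the 10 genes, whereas they did not overlap for 16.1% of all genes tested (5.50% higher and 10.6% lower in the knockout). The log2 fold change was above 0 for 7 genes and below 0 for 3, where 59.0% of all genes tested lay below 0, with a median of 0.17 beside -0.07 over all genes tested. All 10 passed the filter on low values. In bulk tissue, fewer goblet cells and less RNA per goblet cell cannot be told apart.

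**Figure D1:**
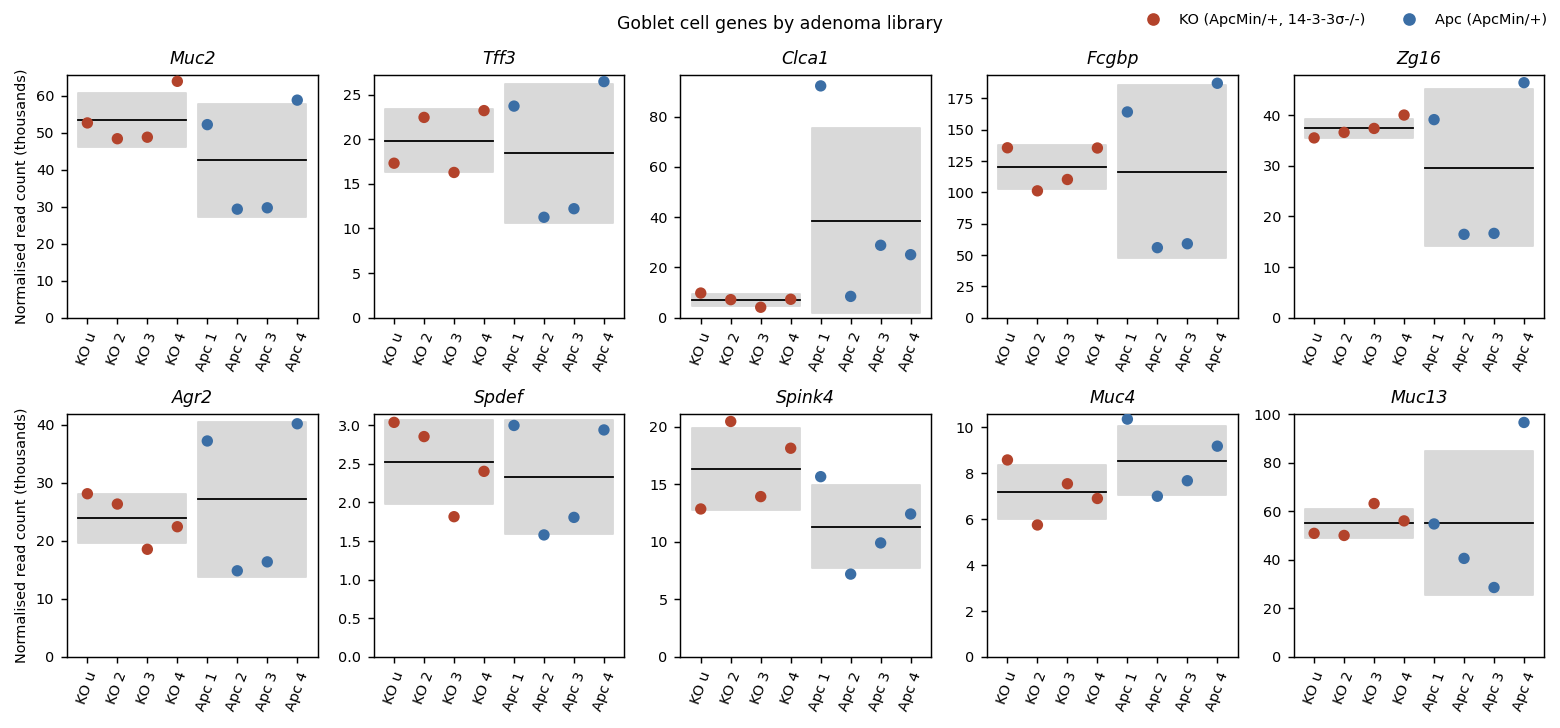
Normalised read count (in units of 1000, linear axes from 0) of the 10 genes in each adenoma library, 4 knockout (KO, with u for the unnumbered library) and 4 ApcMin/+ (Apc). Points are libraries, lines group means and grey bands 1 SD to each side; ApcMin/+ replicates 2 and 3 lie below replicates 1 and 4 for 9 of the 10 genes, and Clca1 reaches 92172 in ApcMin/+ replicate 1.

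Among the secreted components, Muc2 (chromosome 7, 141690340 to 141754693, GRCm38) was at 52633 in the unnumbered knockout library and at 48365, 48773 and 63880 in knockout replicates 2 to 4, against 52172, 29326, 29697 and 58794 in ApcMin/+ replicates 1 to 4. The knockout libraries were all above the mean of the ApcMin/+ libraries, but ApcMin/+ replicates 1 and 4 lay among them. Means were 53413 ± 7238 in knockout and 42497 ± 15237 in ApcMin/+ adenomas (SD, n = 4 each), and the log2 fold change was 0.39 (95% interval -0.23 to 1.01, limma adjusted p = 0.46). Fcgbp (chromosome 7, 28071236 to 28120862), a large protein with repeated von Willebrand domains that joins the Muc2 gel, had the highest values of the 10. It was at 135588 in the unnumbered knockout library and 101224, 110278 and 135407 in knockout replicates 2 to 4, against 164183, 55875, 58994 and 187067 in ApcMin/+ replicates 1 to 4. The knockout values all fell inside the gap between the low and the high ApcMin/+ libraries. The log2 fold change of Fcgbp was 0.25 (95% interval -0.76 to 1.27, limma adjusted p = 0.79).

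Zg16 (chromosome 7, 127050156 to 127087328), a lectin-like protein that binds the cell wall of Gram-positive bacteria, was likewise lowest in ApcMin/+ replicates 2 and 3 and highest in ApcMin/+ replicate 4. Its values were 35490, 36579, 37361 and 40003 in the unnumbered library and replicates 2 to 4 of the knockout, against 39099, 16453, 16642 and 46394 in ApcMin/+ replicates 1 to 4. The knockout libraries differed among themselves by 1.13 times from lowest to highest, the narrowest spread of the 10 genes, and the ApcMin/+ libraries by 2.82 times. The log2 fold change was 0.49 (95% interval -0.32 to 1.30, limma adjusted p = 0.47). Tff3 (chromosome 17, 31125306 to 31129646), a trefoil peptide of mucosal repair, was at 17314, 22449, 16278 and 23211 in the knockout libraries in the same order, against 23715, 11255, 12215 and 26462 in ApcMin/+ replicates 1 to 4. Again ApcMin/+ replicates 2 and 3 were lowest and replicates 1 and 4 highest of all 8, with a log2 fold change of 0.19 (95% interval -0.51 to 0.89, limma adjusted p = 0.76).

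Spink4 (chromosome 4, 40920052 to 40931395), a small secreted peptide of the Kazal protease inhibitor family, had the highest positive fold change. It was at 12853, 20451, 13926 and 18127 in the unnumbered library and replicates 2 to 4 of the knockout, against 15658, 7196, 9903 and 12416 in ApcMin/+ replicates 1 to 4. Every knockout library exceeded ApcMin/+ replicates 2, 3 and 4, while ApcMin/+ replicate 1 lay within the knockout range. The means were 16339 ± 3563 in knockout and 11293 ± 3607 in ApcMin/+ adenomas (SD, n = 4 each), and the log2 fold change was 0.56 (95% interval -0.02 to 1.15, limma adjusted p = 0.28).

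Clca1 (chromosome 3, 145003817 to 145032776), a secreted metalloprotease-like protein that acts on the Muc2 gel, had the largest fold change of the 10. Its normalised read counts were 9799 in the unnumbered knockout library and 7175, 4145 and 7323 in knockout replicates 2 to 4. In ApcMin/+ replicates 1 to 4 they were 92172, 8469, 28794 and 25053. All knockout libraries were below ApcMin/+ replicates 1, 3 and 4, and 1 of them, the unnumbered one, was above ApcMin/+ replicate 2. Means were 7111 ± 2315 in knockout and 38622 ± 36776 in ApcMin/+ adenomas (SD, n = 4 each), and the log2 fold change was -2.01 with a 95% interval of -3.46 to -0.57. The limma p was 0.0121 unadjusted and 0.164 adjusted. The interval leaves 0 out because it is not adjusted for the number of genes tested. Without ApcMin/+ replicate 2 the log2 fold change was -2.58 and passed (limma adjusted p = 0.0357), in a fit that called 1.90% of all genes. Without ApcMin/+ replicate 1, the highest library, it was -1.43 (limma adjusted p = 0.153). Over the 23 alternative settings its log2 fold change ran from -2.997 to -1.43 and its adjusted p from 0.0156 to 0.665.

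Markers of gastric and Brunner gland cells varied along with Clca1 in part. Of 8 such markers, all 8 had a log2 fold change below 0, with a median of -1.69, and 0 passed. Their sum was 41579 to 70049 in the knockout libraries, against 439337, 39756, 72245 and 140952 in ApcMin/+ replicates 1 to 4. ApcMin/+ replicate 1 was highest and ApcMin/+ replicate 2 lowest of all 8 libraries, for this sum as for Clca1 among the ApcMin/+ libraries. The stomach surface genes Gkn1 and Tff1, markers of another organ than the labelled small intestine, reached 87337 and 69789 in ApcMin/+ replicate 1, against 1431 and 91 in ApcMin/+ replicate 2. In the knockout libraries Gkn1 was at 1044 to 3502 and Tff1 at 200 to 710. Other genes of this list were high in every library. Gkn3 was at 12540 to 19255 in the knockout and 16795 to 59306 in the ApcMin/+ libraries. Muc6 was at 16420 to 39556 in the knockout and 20202 to 71530 in the ApcMin/+ libraries. The part of these cells in the Clca1 difference was not tested.

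**Figure D2:**
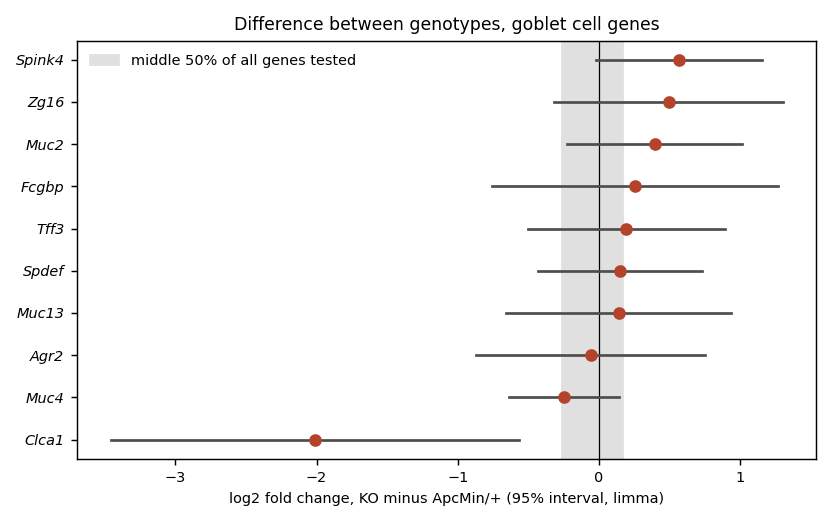
Log2 fold change, knockout minus ApcMin/+, of the 10 genes (points) with unadjusted 95% intervals from the limma fit (bars); the grey band spans the middle 50% of the 17523 genes tested. Of the 10 intervals, that of Clca1, centred on -2.01, leaves out 0, and Spink4 at 0.56 is the highest.

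The folding enzyme and the transcription factor of the goblet programme had fold changes near 0 with wide intervals. Agr2 (chromosome 12, 35992907 to 36004087) was at 28144, 26366, 18569 and 22456 in the unnumbered library and replicates 2 to 4 of the knockout, against 37239, 14860, 16399 and 40207 in ApcMin/+ replicates 1 to 4. The log2 fold change of -0.06 (95% interval -0.87 to 0.75, limma adjusted p = 0.95) changed sign under every other scaling tried. Spdef (chromosome 17, 27714352 to 27728955) was at 3037, 2853, 1816 and 2403 in the knockout libraries in that order, against 2997, 1580, 1807 and 2939 in ApcMin/+ replicates 1 to 4. Its groups covered nearly the same range, and the log2 fold change was 0.15 (95% interval -0.43 to 0.73, limma adjusted p = 0.79).

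The transmembrane mucins likewise overlapped between the genotypes. Muc4 (chromosome 16, 32735886 to 32782391) was at 8576, 5746, 7540 and 6899 in the unnumbered library and replicates 2 to 4 of the knockout, against 10353, 6997, 7672 and 9176 in ApcMin/+ replicates 1 to 4. It was the gene with the most even ApcMin/+ libraries, 1.48 times from lowest to highest, and had a log2 fold change of -0.25 (95% interval -0.64 to 0.14, limma adjusted p = 0.45). Muc13 (chromosome 16, 33794037 to 33819934) was at 50980, 50117, 63277 and 56126 in the knockout libraries in that order, against 54862, 40656, 28653 and 96713 in ApcMin/+ replicates 1 to 4. Its means were nearly equal, 55125 ± 6048 in knockout and 55221 ± 29663 in ApcMin/+ adenomas (SD, n = 4 each), with a log2 fold change of 0.14 (95% interval -0.66 to 0.93, limma adjusted p = 0.86).

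The goblet cell genes differed more among the ApcMin/+ adenomas than among the knockout adenomas. The ratio of highest to lowest library had a median of 1.46 over the 10 genes in the knockout group and 2.53 in the ApcMin/+ group, and 9 of the 10 genes had the wider log2 range in ApcMin/+, as did 61.1% of all genes tested. In ApcMin/+ replicates 1 and 4, 9 of the 10 genes were above both replicates 2 and 3, the exception being Clca1, and 36.4% of all genes tested showed that order. The 10 genes together made up 0.877% to 0.965% of the summed values in the knockout libraries, against 1.18%, 0.533%, 0.617% and 1.08% in ApcMin/+ replicates 1 to 4. ApcMin/+ replicates 2 and 3 are the ones with high Xist. The unnumbered knockout library, also with high Xist, was the highest of its group for 5 of the 10 genes and the lowest for 2. The part of sex in these values was not tested.

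Enterocyte and enteroendocrine markers were low in the same ApcMin/+ libraries, and some other epithelial lists were not. The 10 absorptive enterocyte markers summed to 314557 to 486997 in the knockout libraries, against 430991, 136799, 140691 and 541258 in ApcMin/+ replicates 1 to 4. All 10 of these markers were detected in every library. The log2 fold change was above 0 for 9 of them and below 0 for 1, with a median of 0.71, and 0 of them passed. The 6 fibroblast markers summed to 39361 to 80521 in the knockout libraries and to 27353 to 38312 in the ApcMin/+ libraries, without overlap. These sums were lowest in ApcMin/+ replicates 1 and 4. Averaged on the log2 scale, the groups overlapped, at 12.04 to 12.97 in the knockout and 11.48 to 12.05 in the ApcMin/+ libraries. Taken singly, 3 of the 6 markers, Col1a1, Col1a2 and Col3a1, had groups that did not overlap. All 6 had a log2 fold change above 0, with a median of 0.87, and 0 passed. Paneth cell markers, another secretory list, summed to 120031 to 206784 in the knockout libraries and to 93860 to 124829 in the ApcMin/+ libraries. The sum was lowest in ApcMin/+ replicate 1. By mean log2 level the list was lowest in ApcMin/+ replicate 4, at 11.13, and stood at 12.24 in replicate 1. Of these 10 markers, 8 had a log2 fold change above 0 and 2 below 0, with a median of 0.73. Tuft cell markers summed to 10005 to 13112 in the knockout libraries and to 14526 to 16936 in the ApcMin/+ libraries, without overlap and lowest among ApcMin/+ in replicate 4. All 6 tuft cell markers tested had a log2 fold change below 0, with a median of -0.83. Enteroendocrine markers summed to 1555 to 2114 in the knockout libraries, against 3668, 1711, 1992 and 3523 in ApcMin/+ replicates 1 to 4. Like the goblet genes, they were lower in ApcMin/+ replicates 2 and 3 than in replicates 1 and 4. Stem cell markers (36640 to 43870 in knockout, 37167 to 43982 in ApcMin/+, highest among ApcMin/+ in replicates 2 and 3) and leukocyte markers (2376 to 3812 in knockout, 2314 to 3166 in ApcMin/+) overlapped as well, and 0 genes of these lists passed. The part of tissue composition in the goblet values was not tested.

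**Figure D3:**
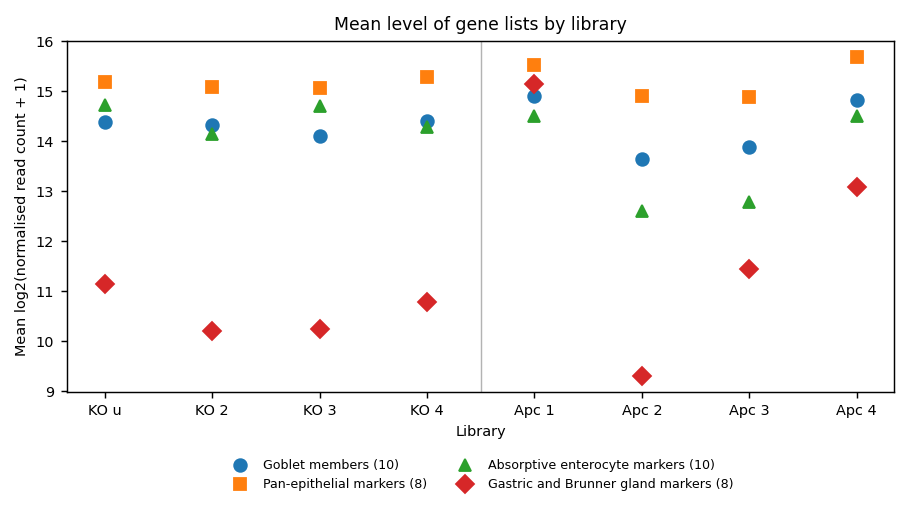
Mean log2(normalised read count + 1) of the 10 goblet cell genes and of 3 marker lists in each library, knockout (KO, u for unnumbered) left and ApcMin/+ (Apc) right of the line. Goblet, pan-epithelial and enterocyte lists are all lower in ApcMin/+ replicates 2 and 3 than in replicates 1 and 4, and the gastric and Brunner gland list has its highest mean, 15.15, in ApcMin/+ replicate 1 and its lowest, 9.31, in ApcMin/+ replicate 2.

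In the 5 libraries with low Xist, 3 knockout and 2 ApcMin/+, the picture was different. There 3 of the 10 genes passed, Clca1 (log2 fold change -2.997), Agr2 (-0.80) and Muc4 (-0.54), with limma adjusted p of 0.0156, 0.0333 and 0.0471. In that fit 13.2% of 16635 genes passed, and 9 of the 10 goblet genes lay below 0, with a median of -0.36 beside -0.13 over all genes. This sets knockout replicates 2 to 4 against ApcMin/+ replicates 1 and 4, the ApcMin/+ libraries in which goblet genes were highest.

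Set against the other 9 genes of the same library, Clca1 was lower in every knockout adenoma. Its log2 level minus the mean log2 level of the others was -1.26, -1.68, -2.33 and -1.74 in the unnumbered library and replicates 2 to 4 of the knockout, against 1.77, -0.67, 1.02 and -0.24 in ApcMin/+ replicates 1 to 4. As a percentage of Muc2, Clca1 stood at 18.6, 14.8, 8.50 and 11.5 in the knockout libraries, against 177, 28.9, 97.0 and 42.6 in the ApcMin/+ libraries. The groups do not overlap in either measure. These ratios were formed after the values had been seen and are given as a description, with no test. Muc2 and Zg16 were the other genes whose relative levels did not overlap, both higher in the knockout. Muc2 stood at 1.38 to 1.74 in knockout and at 0.85 to 1.32 in ApcMin/+ libraries, and Zg16 at 0.81 to 1.20 in knockout and at 0.14 to 0.75 in ApcMin/+ libraries. The mean they are set against includes Clca1. Set against the mean of the pan-epithelial markers instead, Muc2, Zg16 and Spink4 were higher and Clca1 lower in the knockout, each without overlap. Which genes separate therefore depends on the reference. No share over all genes was computed for either measure, so whether these separations are unusual is not known. On the plain values, 16.1% of all genes tested did not overlap. The separations are a description of the values only.

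**Figure D4:**
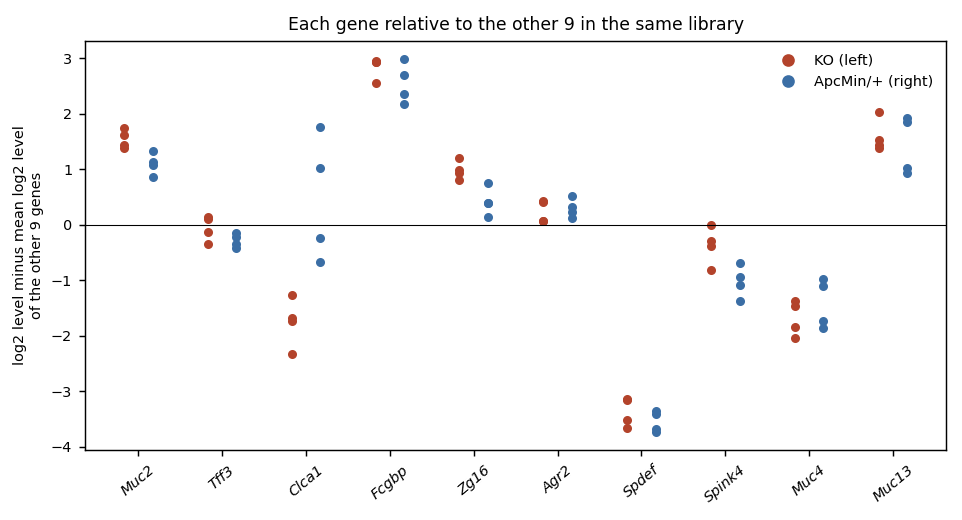
Log2(normalised read count + 1) of each gene minus the mean log2 value of the other 9 genes in the same library, with 4 knockout libraries left and 4 ApcMin/+ libraries right for each gene. Knockout and ApcMin/+ points do not overlap for Muc2, Clca1 and Zg16, and Clca1 has the widest ApcMin/+ range, -0.67 to 1.77. No share over all genes was computed for this measure, which was formed after the values had been seen.

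Per kilobase of merged exons (GENCODE M21, GRCm38), Tff3 had the highest mean level in both genotypes, 40189 in knockout and 37347 in ApcMin/+ adenomas. In knockout adenomas Spink4 (34254) and Zg16 (29720) followed. The range of Spink4 over libraries overlapped with those of Tff3 and Zg16, while every Tff3 library was above every Zg16 library. Agr2 (18500) and Muc13 (18145) came next and overlapped too, then Fcgbp (11491) and Muc2 (7494), each apart from its neighbours. Clca1 (1883) overlapped with Spdef (1096) in the knockout libraries, and Muc4 (612) was lowest. In ApcMin/+ adenomas Clca1 averaged 10226 per kilobase, and Muc2 5963, with Clca1 libraries from 2242 to 24404. Clca1 was above Muc2 in 2 of the 4 libraries, replicates 1 and 3, and without replicate 1 the means were 5499.6 for Clca1 and 5510.4 for Muc2. The annotation the authors counted with is not given in the sources used here, so these levels rest on the exon lengths of another source.

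Further genes of the goblet programme were counted in the same fit. Of 24 other goblet cell markers, 0 passed in either direction, with a median log2 fold change of -0.08. Guca2a, the precursor of the hormone guanylin, averaged 2837 ± 1134 in knockout and 995 ± 538 in ApcMin/+ adenomas (SD, n = 4 each), and its knockout libraries (1782 to 3832) did not overlap with its ApcMin/+ libraries (526 to 1652). Its log2 fold change was 1.58 (limma adjusted p = 0.137). Lrrc26, a regulatory subunit of potassium channels, was lower in every knockout library, at 973 to 1178 against 1255 to 2687 in ApcMin/+, and the log2 fold change was -0.69 (limma adjusted p = 0.171).

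Of 9 goblet lineage transcription factors, 0 passed in either direction and the median was -0.08. Atoh1, the basic helix-loop-helix factor that commits cells to the secretory lineage, was at 539 to 703 in the knockout libraries and at 284 to 581 in the ApcMin/+ libraries, and its log2 fold change was 0.55 (limma adjusted p = 0.27). Foxa2, a forkhead factor, was at 219 to 320 in the knockout libraries and at 344 to 382 in the ApcMin/+ libraries, without overlap (log2 fold change -0.42, limma adjusted p = 0.217). Foxa3, another forkhead factor, stood at -0.32 on the log2 scale (limma adjusted p = 0.286).

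Of 16 mucin glycosylation enzymes, 15 were tested, 0 passed and the median was -0.05. C1galt1, the enzyme that adds galactose to make the core of mucin O-glycans, was at 11578, 9261, 12409 and 11663 in the unnumbered library and replicates 2 to 4 of the knockout, against 7665, 6749, 6862 and 7338 in ApcMin/+ replicates 1 to 4. The groups were separate, with a log2 fold change of 0.64. The limma adjusted p of C1galt1, 0.0913, was the lowest among the lists that are not cell type marker lists. It passed in 3 of the 23 alternative settings, with log2 fold changes from 0.56 to 0.74 over all of them. Among the 3 was the fit of genotype alone, without the removed direction as a covariate (limma adjusted p = 0.0312). That fit called 2.43% of all genes tested, against 0.331% in the main fit. Fut2, a fucosyltransferase of mucin glycans, was lower in each knockout library, at 3285 to 3828 against 4276 to 5393 in ApcMin/+ (log2 fold change -0.43, limma adjusted p = 0.136). The sialyltransferase gene St3gal1 stood at 0.61 on the log2 scale (limma adjusted p = 0.170), with overlapping groups.

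Endoplasmic reticulum folding genes, which serve the heavy mucin load of goblet cells, had small fold changes. Of 20 such genes 0 passed, the median was -0.04, and the range ran from -0.31 for the disulfide isomerase gene Pdia6 to 0.28 for the chaperone gene Dnajb9 (limma adjusted p 0.283 and 0.384). Pdia4 stood at -0.19 on the log2 scale (limma adjusted p = 0.397). Of 14 genes of mucus secretion, 12 were tested and 0 passed, with a median of -0.14. Among them the vesicle fusion gene Vamp8 was at -0.46, the meprin gene Mep1b, whose protease cuts Muc2, at 0.58, and Napa at -0.20 on the log2 scale (limma adjusted p 0.261, 0.30 and 0.334).

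Relatives of the 10 genes by family were counted too. Of 21 relatives, 17 were tested, 0 passed, and the median log2 fold change was -0.11. Clca2 was at 4 to 15 in the knockout libraries and at 21 to 29 in the ApcMin/+ libraries, low levels that passed the filter on low values through the ApcMin/+ libraries, so its difference is given as a description. Clca4a, which is made by absorptive cells, averaged 16524 ± 4360 in knockout and 8677 ± 3479 in ApcMin/+ adenomas (SD, n = 4 each). The difference was 0.98 on the log2 scale (limma adjusted p = 0.163). Reads of Clca4a may be shared with its close copy Clca4b, so its own value is uncertain. The transmembrane mucin gene Muc1 was at 16 to 77 in the knockout libraries, against 4096, 16, 268 and 248 in ApcMin/+ replicates 1 to 4 (log2 fold change -3.04, limma adjusted p = 0.289). Leaving out ApcMin/+ replicate 1 gave -1.72 on the log2 scale for Muc1, and leaving out ApcMin/+ replicate 2 gave -4.36. In the 5 libraries with low Xist, Guca2a, Lrrc26, St3gal1, Vamp8 and Muc1 passed as well, each in that setting alone of the 23, with limma adjusted p from 0.0142 for Vamp8 to 0.0490 for Guca2a. In that fit 13.2% of the 16635 genes tested passed. These 5 genes had been named for being among the smallest p of their lists in the main fit.

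Genes with the most similar pattern were sought among 13478 others, by Pearson correlation over the 8 libraries with the mean z-score of Muc2, Tff3, Clca1, Fcgbp, Zg16, Spink4, Agr2 and Spdef. The 10 closest were Smim15, Ccdc134, Kcnk6, Liph, Slc2a7, Tmem30b, Spryd7, Emc2, Tpm3-rs7 and Sdcbp, with r from 0.964 to 0.995, given as a description of these libraries. Of the genes that form the mean z-score, Clca1 followed it least, with r = 0.336, and the rest had r from 0.760 to 0.966. The pattern matched is therefore mainly not that of Clca1. Kcnk6, a potassium channel gene, was at 1316, 1159, 1109 and 1343 in the unnumbered library and replicates 2 to 4 of the knockout, against 1703, 602, 747 and 1539 in ApcMin/+ replicates 1 to 4. Liph, a membrane phospholipase gene, was at 2859 to 3830 in the knockout libraries, against 4571, 2061, 2214 and 5015 in ApcMin/+ replicates 1 to 4. Both were low in ApcMin/+ replicates 2 and 3 as the goblet genes were, which follows from their choice by correlation over these same libraries. After quantile normalisation 3 of these 10 genes stayed among the closest 10, so the names depend on the scaling.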

How the data were processed

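Strand-specific libraries were made from total adenoma RNA, per the labels' protocols. A sheet was deposited by the authors, with read counts after RUVs normalisation, per the file headers, treated here as a score because the values are normalised and rounded. RUVs estimates unwanted factors from replicates and subtracts them, which can lower the spread between replicates. The build is mm10 (the GRCm38 assembly), per the submitters' processing notes. For the aligner, counter, annotation and RUVs settings: not given in the sources used here. Libraries were grouped by the genotype in the labels and column names, and 27 rows with names turned into dates were left out.

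Testing took the genes that reached 10 in 4 or more libraries and used limma 3.58.1 in R 4.3.3 (lmFit, eBayes with trend) on log2(value + 1), knockout minus ApcMin/+, two-sided, with Benjamini-Hochberg adjustment over all genes tested and a threshold of 0.05. This scale understates changes of low genes. A direction of replicate deviation with a singular value under 0.1 of the largest, computed on 12052 genes at 100 or above, entered as a covariate (1 direction, 5 residual degrees of freedom). The model was tested on simulated data. Intervals are unadjusted limma intervals. No counting interval is given because depth is unknown. Sfn was tested by exact permutation.

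The 10 genes and all lists were chosen with earlier results of these data known. Named besides the 10 are the 3 genes with the smallest p in each list that is not a cell type marker list, and the 10 most similar genes. Gkn1, Gkn3, Tff1, Muc5b, Muc6 and St6galnac1 were picked from their lists after their values were seen. Motifs were chosen after the fold changes were known. Alternatives were pseudocounts, filters, scalings, covariates, array weights, a robust eBayes and the omission of single libraries. Xist-high libraries as a covariate, the 5 libraries with low Xist, scaling to equal totals and scaling to pan-epithelial markers were added after the data were seen.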

Additional observations from a re-analysis of the deposited data

Results flagged for a closer look

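Muc1 in ApcMin/+ replicate 1 was at 4096, far from the other ApcMin/+ libraries at 16 to 268. Lrrc26 in knockout replicate 2 was at 973, below the other knockout libraries at 1146 to 1178. These were 2 of 56 groups of 4 libraries examined for a library that stands apart, and chance alone gives about 5% of such groups.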

How the results depend on the processing

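None of the 10 goblet genes passed in 21 of 23 alternative settings. Clca1 passed without ApcMin/+ replicate 2, and 3 passed in the 5 libraries with low Xist, where the median of the 10 was -0.36. Leaving out 1 library at a time gave 0 to 1 passing genes and medians of -0.02 to 0.43. The number of all genes that passed, 58, was 426 without the removed direction as a covariate, 18 with the library-name prefix as a covariate, 9 in the libraries of the shared prefix, 13 with array weights, 2198 in the 5 libraries with low Xist and 16 to 329 when 1 library was left out: 329 without ApcMin/+ replicate 2, 130 without ApcMin/+ replicate 4, 20, 17 and 21 without knockout replicates 2, 3 and 4, and 16 without the unnumbered knockout library. In the prefix settings the knockout libraries were in effect set against ApcMin/+ replicates 1 and 2 alone, as replicates 3 and 4 carry another prefix. The cause of these changes in number was not tested. Of the 58 genes, 33 were higher in the knockout and 25 lower. Median-ratio scaling gave 38 higher with 18 lower, quantile normalisation 40 with 20, pan-epithelial scaling 38 with 20 and equal totals 24 with 18. Array weights gave 5 with 8, and the 5 low-Xist libraries 688 with 1510.

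Signs turned for Agr2 under median-ratio scaling (0.0020), quantile normalisation (0.066), the prefix as a covariate or the shared prefix alone (0.0037 each), equal totals (0.016) and pan-epithelial scaling (0.037), and between -0.30 and 0.18 when 1 library was left out. In the low-Xist libraries they turned for Muc2 (-0.058), Tff3 (-0.30), Fcgbp (-0.61), Zg16 (-0.17), Spdef (-0.36) and Muc13 (-0.37), and with Xist as a covariate for Muc13 (-0.033). With 1 library left out Tff3 ran from -0.010 to 0.40, Fcgbp from -0.027 to 0.55, Spdef from -0.021 to 0.30 and Muc13 from -0.13 to 0.46. Spink4 stayed above 0 and Clca1 and Muc4 below 0 in all 23 settings. Sfn differed by -12.76 in the shared prefix (exact permutation p = 0.0667, the smallest that 6 libraries allow). No paired analysis was possible because the labels give no replicate numbers that the genotypes share.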

Other observations

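St6galnac1, the sialyltransferase gene for the sialyl-Tn cap of mucin glycans, did not pass the filter on low values and was not tested. It was listed at 0, 2, 7 and 0 in the unnumbered library and replicates 2 to 4 of the knockout, against 272, 6, 2 and 1522 in ApcMin/+ replicates 1 to 4. Muc5b, a secreted mucin gene of airways and salivary glands, was at 10 to 46 in the knockout libraries, against 303, 1, 15 and 31 in ApcMin/+ replicates 1 to 4. Muc6, the secreted mucin of gastric and Brunner glands, was at 16420 to 39556 in the knockout libraries and at 20202 to 71530 in the ApcMin/+ libraries.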
